A study of Mus musculus with 9 samples.

Results

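The 8 genes described here are used as markers of mesothelium. This single-layered sheet of cells covers the lung as visceral pleura and lines the chest wall, pericardium and peritoneum. The genes are Msln, Upk3b, Wt1, Lrrn4, Gpm6a, Upk1b, Bnc1 and Aldh1a2, chosen by symbol. Each has 1 row among the 21930 protein-coding genes of the count table. All 8 passed the filter on low counts that 15636 genes passed. Lung RNA came from 9 mice in 3 groups of 3. LPS mice received intratracheal lipopolysaccharide (a cell wall component of Gram-negative bacteria that causes acute lung injury) at 2 mg/kg and then vehicle. LPS plus RSBD mice (RSBD 1 to 3) received the same LPS and then a daily gavage of Renshen Baidu Powder decoction, a traditional herbal formula, and control mice received saline in place of LPS. All mice are labelled male C57BL/6 of 6 to 8 weeks, were anesthetised with tribromoethanol and gave lungs on day 5 after instillation. Gavage, by the labels on 5 consecutive days, began 24 hours after the instillation, and the labels do not say whether control mice were gavaged.

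Mesothelial cells arise from lateral plate mesoderm yet carry both epithelial features, such as keratins and uroplakins, and mesodermal transcription factors. They secrete lubricating glycoproteins and hyaluronan into the pleural fluid, and after injury they can lose epithelial features and take on those of fibroblasts. Pleura is a thin rim at the surface of a lobe, so its share of a lung sample depends on which piece of lung is taken as well as on the state of its cells. In whole-lung RNA, fewer mesothelial cells and less RNA per cell cannot be told apart.

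Total counts per library ran from 26959662 to 36113905. Genes of chromosome Y had 7511 to 10918 reads in the 6 libraries of LPS-treated mice and 6 to 9 reads in the 3 libraries labelled control, although all mice are labelled male, so each comparison with control is also one of libraries with and without chromosome Y transcripts, and the pair cannot be told apart. LPS 1 also stood apart from LPS 2 and LPS 3 outside the pleura. The 858 tested genes with a transcript of at least 8000 bases had a median log2 deviation from the mean of all libraries of 0.09 in LPS 1, -0.20 in LPS 2 and -0.15 in LPS 3, between -0.02 and 0.01 in RSBD libraries and between 0.06 and 0.13 in control libraries. The 885 genes of at most 1000 bases ran the other way, at -0.15 in LPS 1, 0.29 in LPS 2 and 0.22 in LPS 3, against -0.01 to 0.06 in RSBD and -0.20 to -0.06 in control libraries. The longest transcripts of the 8 mesothelial genes have 1894 to 4646 bases, and the part of transcript length in the results below was not tested.

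In LPS lungs, levels of 6 of the 8 mesothelial genes were split between animals. Upk3b, Lrrn4, Wt1, Bnc1, Aldh1a2 and Msln were at least 3-fold higher in LPS 1 than in LPS 2 or LPS 3, while Gpm6a and Upk1b differed little. The coefficient of variation was lower in RSBD lungs and in control lungs than in LPS lungs for every one of the 8 genes except Gpm6a, for which it was 17.9% in RSBD, 8.15% in LPS and 26.4% in control lungs. Of the 8 genes, LPS 2 and LPS 3 had 7 each below every control library, RSBD 1, 2 and 3 had 6, 8 and 7, and LPS 1 had 1 below and 3 above every control. The share of all tested genes outside the control range was not computed for single libraries, so these counts only describe the 8 genes.

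Levels are given as CPM (reads of a gene relative to the library size, scaled by the TMM method), with means ± SD over 3 libraries per group. Log2 fold changes ± SE come from a single edgeR quasi-likelihood fit of all 9 libraries, with Benjamini-Hochberg adjusted p over 15636 genes and a call at 0.05. Coordinates are those of the deposited table on mm10. Bnc1 and Aldh1a2 overlap pseudogenes on the opposite strand and Gpm6a overlaps unconfirmed transcripts on its own strand in the GENCODE annotation, and reads of such partners could be counted with them.

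Msln encodes mesothelin, a GPI-anchored surface glycoprotein that binds the mucin Muc16 (ENSMUSG00000063011, chromosome 17, 25748613 to 25754378, minus strand). It had 26.6, 7.97 and 6.32 CPM in LPS 1 to 3, 28.1, 16.8 and 22.6 CPM in RSBD 1 to 3, and 26.0, 75.3 and 48.2 CPM in control 1 to 3. LPS 2 and LPS 3 lay below all others, whereas LPS 1 was level with control 1, the lowest control. Msln fell to 13.6 ± 11.2 CPM in LPS lungs, against 49.8 ± 24.7 CPM in control lungs, a log2 fold change of -1.87 ± 0.56 (adjusted p = 0.0483). It was the single mesothelial gene called in any comparison, and that call was lost without control 2, control 3, LPS 2, LPS 3 or any RSBD library (highest adjusted p = 0.165). Against LPS, RSBD lungs at 22.5 ± 5.65 CPM were not called (0.73 ± 0.55, adjusted p = 0.725), nor were they against control (-1.15 ± 0.54, adjusted p = 0.248).

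Upk3b encodes uroplakin 3B, a membrane protein of the uroplakin family that is used as a marker of mesothelium in mouse tissue atlases (ENSMUSG00000042985, chromosome 5, 136038496 to 136046487, plus strand). It had 24.2, 1.14 and 1.02 CPM in LPS 1 to 3, 3.59, 5.16 and 4.07 CPM in RSBD 1 to 3, and 13.8, 8.41 and 7.47 CPM in control 1 to 3. LPS 1 was the highest of all 9 libraries and LPS 2 and LPS 3 the lowest, and RSBD libraries fell below every control. In reads, LPS 1 held 652, LPS 2 held 35 and LPS 3 held 28. The group means of 8.79 ± 13.4 CPM in LPS and 9.89 ± 3.41 CPM in control lungs were close (-0.17 ± 0.98, adjusted p = 0.921), with an SD in LPS lungs larger than their mean. RSBD lungs averaged 4.28 ± 0.805 CPM, and neither their difference from LPS (-1.04 ± 1.00, adjusted p = 0.802) nor that from control (-1.21 ± 1.00, adjusted p = 0.509) was called.

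Upk1b encodes uroplakin 1B, a tetraspanin of urothelium and mesothelium (ENSMUSG00000049436, chromosome 16, 38773184 to 38800328, minus strand). It had 41.1, 29.1 and 31.1 CPM in LPS 1 to 3, 28.5, 33.4 and 28.7 CPM in RSBD 1 to 3, and 44.9, 36.4 and 40.2 CPM in control 1 to 3. Its 9 libraries spanned 1.58-fold, and LPS 1 again sat with the controls. RSBD lungs, at 30.2 ± 2.79 CPM, did not overlap control lungs at 40.5 ± 4.28 CPM, with a change of -0.42 ± 0.14 that was not called (adjusted p = 0.115). LPS lungs were at -0.26 ± 0.14 against control (adjusted p = 0.214).

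Lrrn4, a leucine-rich repeat membrane protein first studied in neurons (ENSMUSG00000043110, chromosome 2, 132868305 to 132880891, minus strand), had 9.73, 0.457 and 1.2 CPM in LPS 1 to 3, 1.67, 2.42 and 3.2 CPM in RSBD 1 to 3, and 5.88, 3.95 and 3.38 CPM in control 1 to 3. As for Upk3b, LPS 1 was above all controls, LPS 2 and LPS 3 were below all other libraries, and each RSBD library was below each control. The changes were -0.22 ± 0.86 for LPS against control (adjusted p = 0.882), -0.64 ± 0.88 for RSBD against LPS (adjusted p = 0.872) and -0.86 ± 0.87 for RSBD against control (adjusted p = 0.599).

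Gpm6a, a proteolipid-family membrane glycoprotein that neurons also express (ENSMUSG00000031517, chromosome 8, 54954843 to 55060871, plus strand), did not share the split. It had 55.5, 54.4 and 47.6 CPM in LPS 1 to 3, 48.8, 33.9 and 42.5 CPM in RSBD 1 to 3, and 73.0, 51.7 and 44.4 CPM in control 1 to 3. The 3 groups overlapped, and the LPS libraries lay within the range of the controls. Changes were -0.10 ± 0.19 for LPS against control (adjusted p = 0.729), -0.33 ± 0.19 for RSBD against LPS (adjusted p = 0.622) and -0.43 ± 0.19 for RSBD against control (adjusted p = 0.202).

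Both transcription factors of the set were near the floor of the assay in LPS 2 and LPS 3. Wt1, a zinc-finger factor required for the mesothelium and for the organs that form beneath it (ENSMUSG00000016458, chromosome 2, 105126529 to 105173616, plus strand), had 33, 3 and 0 reads in LPS 1 to 3, 2, 7 and 14 reads in RSBD 1 to 3, and 61, 40 and 76 reads in control 1 to 3. In CPM, all LPS and all RSBD libraries lay below the lowest control, but LPS 1 (1.23 CPM) was close to control 2 (1.27 CPM). In the authors' TPM, a level per transcript length, LPS 1 at 1.06 was above control 2 at 1.04, so LPS and control libraries overlapped. The levels were 0.441 ± 0.681 CPM in LPS, 0.263 ± 0.229 CPM in RSBD and 2.04 ± 0.721 CPM in control lungs. The fitted change was -2.22 ± 1.08 for LPS against control (adjusted p = 0.177), -2.98 ± 1.13 for RSBD against control (adjusted p = 0.159) and -0.77 ± 1.18 for RSBD against LPS (adjusted p = 0.89), none of which was called.

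Bnc1, the zinc-finger protein basonuclin 1 of mesothelium, keratinocytes and germ cells (ENSMUSG00000025105, chromosome 7, 81966653 to 81992307, minus strand), had 71, 0 and 0 reads in LPS 1 to 3, 6, 11 and 20 reads in RSBD 1 to 3, and 39, 18 and 36 reads in control 1 to 3. A count of 0 allows a level of up to 0.098 CPM in LPS 2 and 0.109 CPM in LPS 3 (a limit of 3 reads, counting error only), while LPS 1 was at 2.64 CPM, above every control. Means were 0.879 ± 1.52 CPM in LPS, 0.416 ± 0.286 CPM in RSBD and 1.08 ± 0.437 CPM in control lungs. No comparison was called (-0.30 ± 1.34 for LPS against control, adjusted p = 0.897, -1.09 ± 1.41 for RSBD against LPS, adjusted p = 0.863, and -1.39 ± 1.40 for RSBD against control, adjusted p = 0.597).

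Aldh1a2 encodes the retinaldehyde dehydrogenase that makes retinoic acid in embryonic mesoderm and in mesothelium (ENSMUSG00000013584, chromosome 9, 71215789 to 71296243, plus strand). It had 8.8, 1.04 and 2.43 CPM in LPS 1 to 3, 5.48, 5.52 and 4.98 CPM in RSBD 1 to 3, and 8.34, 9.01 and 7.37 CPM in control 1 to 3. LPS 1 lay inside the control range and all RSBD libraries lay between LPS 3 and the lowest control. The spread was narrow in RSBD lungs (5.33 ± 0.301 CPM) and control lungs (8.24 ± 0.827 CPM) and wide in LPS lungs (4.09 ± 4.14 CPM). Changes were -1.01 ± 0.59 for LPS against control (adjusted p = 0.255), 0.39 ± 0.59 for RSBD against LPS (adjusted p = 0.889) and -0.63 ± 0.58 for RSBD against control (adjusted p = 0.559).

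**Figure D1:**
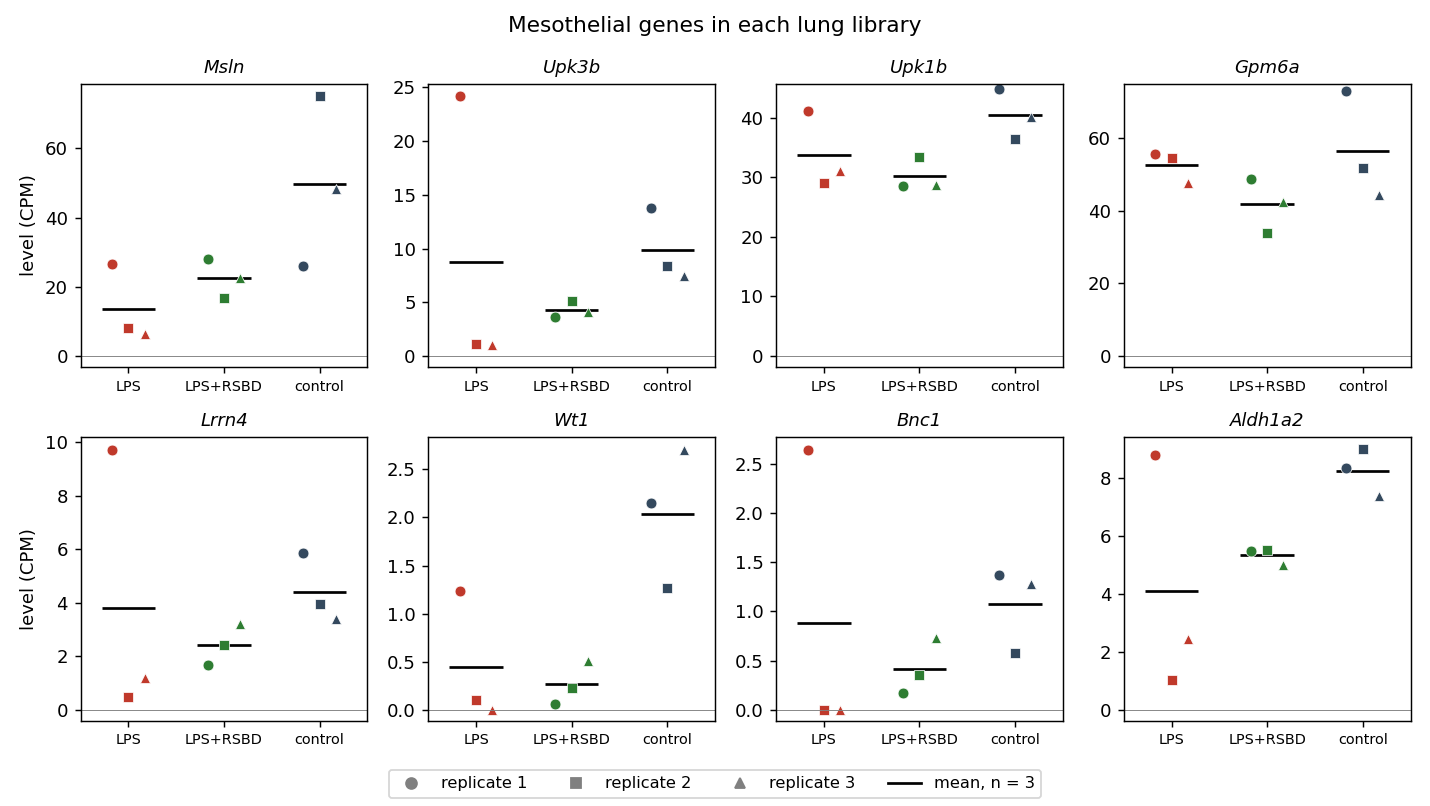
Level of each mesothelial gene in CPM (linear axis), with 1 point per library, marker shape for the replicate number and a bar for the group mean (n = 3). In LPS lungs, LPS 1 (circle) is far above LPS 2 and LPS 3 for Upk3b, Lrrn4, Wt1, Bnc1, Aldh1a2 and Msln, and close to them for Upk1b and Gpm6a.

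Counted over the 8 genes, 1 fell, 0 rose and 7 were not called in LPS against control, where 17.4% of all tested genes were called, 8.79% higher and 8.63% lower. The fitted changes were below 0 for all 8, with a median of -0.28 beside -0.006 for all tested genes. In LPS plus RSBD against LPS, 0 of 8 were called at adjusted p under 0.05 by edgeR, as were 0% of all genes. No member had an unadjusted p under 0.05 there, beside 1473 of all tested genes (9.42%), a share at which 0 of 8 is unremarkable. DESeq2 called 0 of the 7 members for which it gave a p (all but Upk3b) and 154 genes. The median change was -0.49 (all genes 0.011), with 6 members below 0 and 2 above. In LPS plus RSBD against control, 0 of 8 were called by edgeR and 0 of 7 by DESeq2, where edgeR called 3.7% of all genes, 1.89% higher and 1.8% lower. Of the 8, 3 had an unadjusted p under 0.05, namely Upk1b, Wt1 and Gpm6a, beside 22.7% of all tested genes, and the median change was -1.0 (all genes 0.013).

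In LPS against control the CPM of the libraries separated completely for 1 of the 8 genes (Wt1, lower). Its LPS 1 and control 2 were at 1.23 and 1.27 CPM, an order that TPM reversed. Of all tested genes 38% separated in CPM, 18.6% higher and 19.5% lower. In RSBD against LPS 0 of 8 separated, beside 12.6% of tested genes, 7.18% higher and 5.46% lower. In RSBD against control, 5 of 8 were lower without overlap (Upk3b, Wt1, Lrrn4, Upk1b and Aldh1a2), beside 30.4% of tested genes, 15.4% higher and 15% lower. The comparisons with control share the control libraries, and the comparisons with LPS share the LPS libraries.

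One library set the size of most of these values. Each library was left out in turn, and LPS 1 is given in full because its levels of these same genes stood apart, so the adjusted p without it describe that fit and are no independent support. Without LPS 1, edgeR called 7 of the 8 genes lower in the remaining LPS libraries than in control, all but Gpm6a, with 18.2% of genes called in that fit, 8.79% lower. The changes were then -3.19 ± 0.35 for Upk3b (adjusted p = 0.00393), -2.25 ± 0.34 for Aldh1a2 (adjusted p = 0.00659), -2.80 ± 0.47 for Msln (adjusted p = 0.0113) and -2.41 ± 0.50 for Lrrn4 (adjusted p = 0.0158). Upk1b changed by -0.43 ± 0.12 (adjusted p = 0.0393). For the scarce transcripts the counts allow only coarse ratios. The control level of Wt1 was 39.0 times that of the remaining LPS libraries (95% exact interval 13.1 to 191 for counting error, reads taken as independent; adjusted p = 0.0166), and Bnc1 was at least 20.5-fold lower in those LPS libraries, taking a floor of 3 reads over them (adjusted p = 0.0134). The median over the 8 genes was -2.61, also with Bnc1 set at its bound. Leaving out LPS 2 or LPS 3 in its place left 0 of 8 called, with medians of -0.15 and -0.10.

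The direction of RSBD against LPS turned on that library for some of the genes. With LPS 1 left out, the changes of RSBD against LPS were 1.98 ± 0.34 for Upk3b (adjusted p = 0.328), 1.55 ± 0.49 for Lrrn4 (adjusted p = 0.341), 1.62 ± 0.33 for Aldh1a2 (adjusted p = 0.328) and 1.65 ± 0.45 for Msln (adjusted p = 0.339), with a median of 1.64 over the 8. EdgeR called 0 of 8, and 0 of all 15796 genes, in that fit, and 5 of 8 had an unadjusted p under 0.05, beside 11.6% of all genes. Upk3b, Lrrn4, Wt1 and Bnc1 were below 0 with LPS 1 and above 0 without it. Msln and Aldh1a2 were above 0 in both fits, Gpm6a was below 0 in both (-0.29 without LPS 1), and Upk1b was at 0.00 without LPS 1. Against control, RSBD lungs had the same fitted changes, with a smaller SE for all of the 8 genes but Gpm6a (0.20, against 0.19 with LPS 1), and Upk3b was then called lower (-1.21 ± 0.27, adjusted p = 0.0389), while Upk1b and Wt1 had adjusted p = 0.0509 and 0.0525. In that fit 6.08% of genes were called, 3.15% lower.

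**Figure D2:**
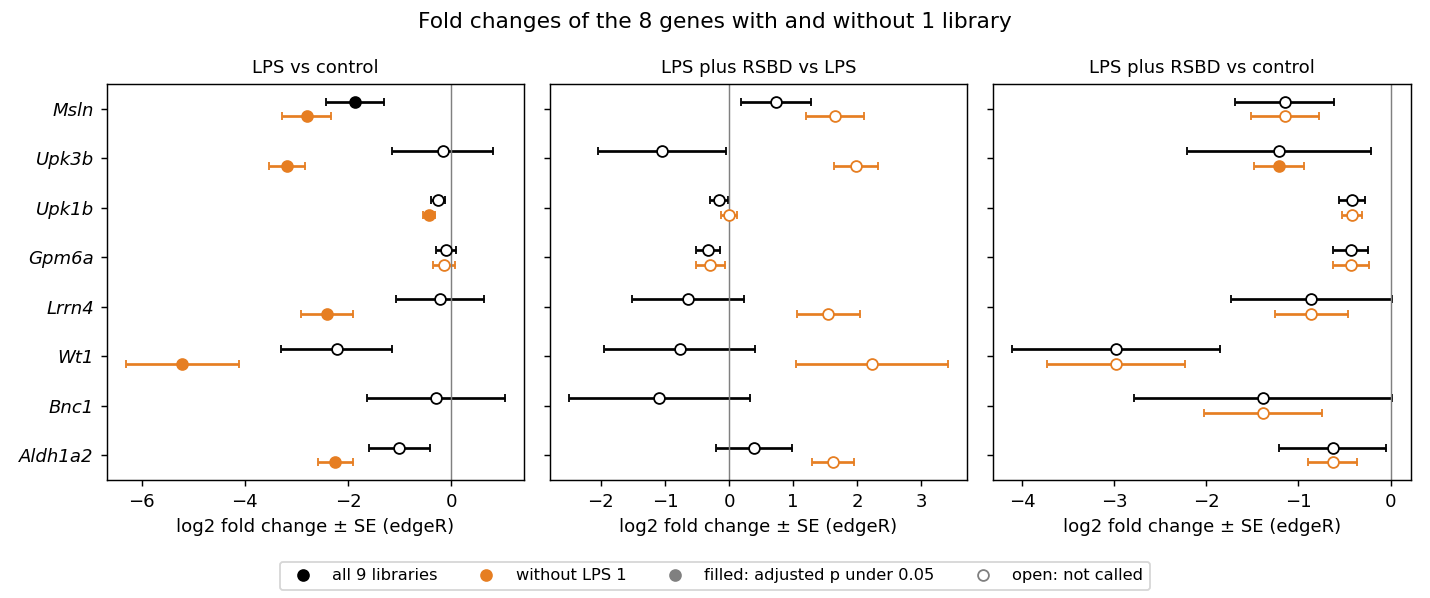
Log2 fold change ± SE of each mesothelial gene in the 3 comparisons, from the fit of all 9 libraries (black) and without LPS 1 (orange), with filled points for adjusted p under 0.05 and Bnc1 left out where its remaining LPS libraries had 0 reads. Msln is the only filled black point, and in LPS vs control 6 orange points are filled.

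The genes also differed in level per transcript length, for which the authors' TPM (read density per transcript length relative to the library) were used. Upk1b led in LPS lungs at 34.0 ± 10.4 TPM and in RSBD lungs at 30.3 ± 2.09 TPM, ahead of Gpm6a at 28 ± 4.63 and 22.2 ± 4.19 TPM in the same groups. All neighbours overlapped in LPS lungs. In control lungs the order of mean TPM was Msln 49.6 ± 25.3, Upk1b 42.3 ± 2.68, Gpm6a 31.7 ± 7.20, Aldh1a2 6.6 ± 0.714, Upk3b 5.05 ± 1.54, Lrrn4 2.13 ± 0.549, Wt1 1.35 ± 0.277 and Bnc1 0.407 ± 0.164. Msln and Upk1b, Upk1b and Gpm6a, and Aldh1a2 and Upk3b overlapped as neighbours in that order, and the other neighbours did not. Wt1 and Bnc1 were last in all groups.

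Ratios within a library showed that the 8 genes did not move by a single factor. Per Upk3b read there were 1.10, 6.97 and 6.21 Msln reads in LPS 1 to 3, 7.82, 3.26 and 5.55 in RSBD 1 to 3 and 1.88, 8.96 and 6.45 in control 1 to 3. LPS 1 and control 1 had the lowest ratios of Msln to Upk3b. Lrrn4 kept closer to Upk3b, with 0.402, 0.400 and 1.18 reads per Upk3b read in LPS, 0.466, 0.469 and 0.786 in RSBD and 0.426, 0.470 and 0.452 in control libraries. Upk1b had 1.70, 25.5 and 30.5 reads per Upk3b read in LPS 1 to 3, 7.93, 6.47 and 7.05 in RSBD libraries and 3.26, 4.33 and 5.38 in control libraries. As a description over 9 libraries that share their groups, the Pearson correlation of log2 CPM of each gene with the mean of the other 7 was 0.96 for Bnc1, 0.95 for Upk3b, 0.92 for Lrrn4, 0.89 for Aldh1a2, 0.87 for Wt1, 0.80 for Upk1b, 0.77 for Msln and 0.24 for Gpm6a.

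A score of the 8 genes, the mean over genes of log2 CPM minus its mean over 9 libraries, was 1.18, -1.58 and -1.51 in LPS 1 to 3, -0.50, -0.24 and 0.06 in RSBD 1 to 3 and 1.03, 0.74 and 0.83 in control 1 to 3. The RSBD scores were below all controls and between the LPS extremes. The SD of the score was 1.58 in LPS, 0.28 in RSBD and 0.15 in control lungs. Without Gpm6a and Upk1b, the same score was 1.51, -2.09 and -1.98 in LPS 1 to 3. It was then -0.62, -0.22 and 0.15 in RSBD 1 to 3 and 1.21, 0.96 and 1.09 in control 1 to 3. How much of the Gpm6a and Upk1b reads came from mesothelium was not tested.

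Of 10 further genes known from mesothelium, 9 passed the filter, and Calb2, which encodes calretinin, the usual stain for human mesothelium, had 0 reads in every library. In LPS against control 1 rose, 1 fell and 7 were not called, with a median of -0.55. Of all tested genes, 8.79% were called higher and 8.63% lower there. The gene that rose was Nkain4, a small membrane protein that interacts with the sodium pump (0.67, adjusted p = 0.0283), and the one that fell was Dmkn, the secreted protein dermokine, which epidermis also makes (-0.70, adjusted p = 0.044). Neither followed the 8 genes across LPS libraries, with 10.2, 11.4 and 14.8 CPM for Nkain4 and 22.5, 31.7 and 34.1 CPM for Dmkn in LPS 1 to 3.

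The split of LPS lungs returned in Muc16, the membrane mucin and binding partner of mesothelin. It had 11.4, 0.131 and 0.182 CPM in LPS 1 to 3, 6.64, 1.39 and 4.69 CPM in RSBD 1 to 3 and 7.39, 12.3 and 10.6 CPM in control 1 to 3. Its LPS 2 and LPS 3 levels were below all others, and it was not called (LPS against control -1.38, adjusted p = 0.454). Pkhd1l1, a large fibrocystin-like membrane protein, had 13.3, 2.02 and 2.22 CPM in LPS 1 to 3, 5.98, 3.03 and 5.96 CPM in RSBD 1 to 3 and 10.1, 8.28 and 7.12 CPM in control 1 to 3. Cldn15, a channel-forming claudin, had 8.92, 2.87 and 1.05 CPM in LPS 1 to 3, 1.48, 1.81 and 2.29 CPM in RSBD 1 to 3 and 5.00, 2.93 and 4.55 CPM in control 1 to 3. Rspo1, a Wnt pathway agonist, ran from 5.89 to 9.49 CPM over all libraries and Prr15 from 1.76 to 3.65 CPM, and neither was called. The lubricating proteoglycan Prg4 was even across LPS 1 to 3, at 1.15, 1.40 and 1.09 CPM. The lectin Itln1 was low in all of them, at 0.149, 0.294 and 0 CPM, against 0.0704, 2.04 and 1.89 CPM in control 1 to 3 (-3.11, adjusted p = 0.115). Control 1 was thus below LPS 1 and LPS 2, but with 2 reads in control 1, 4 in LPS 1 and 9 in LPS 2, too few to order them. RSBD 1 to 3 had 2.85, 0.323 and 1.56 CPM of Itln1 (3.36 against LPS, adjusted p = 0.475). No gene of the list was called in LPS plus RSBD against LPS or against control, beside 0% and 3.7% of all tested genes.

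**Figure D3:**
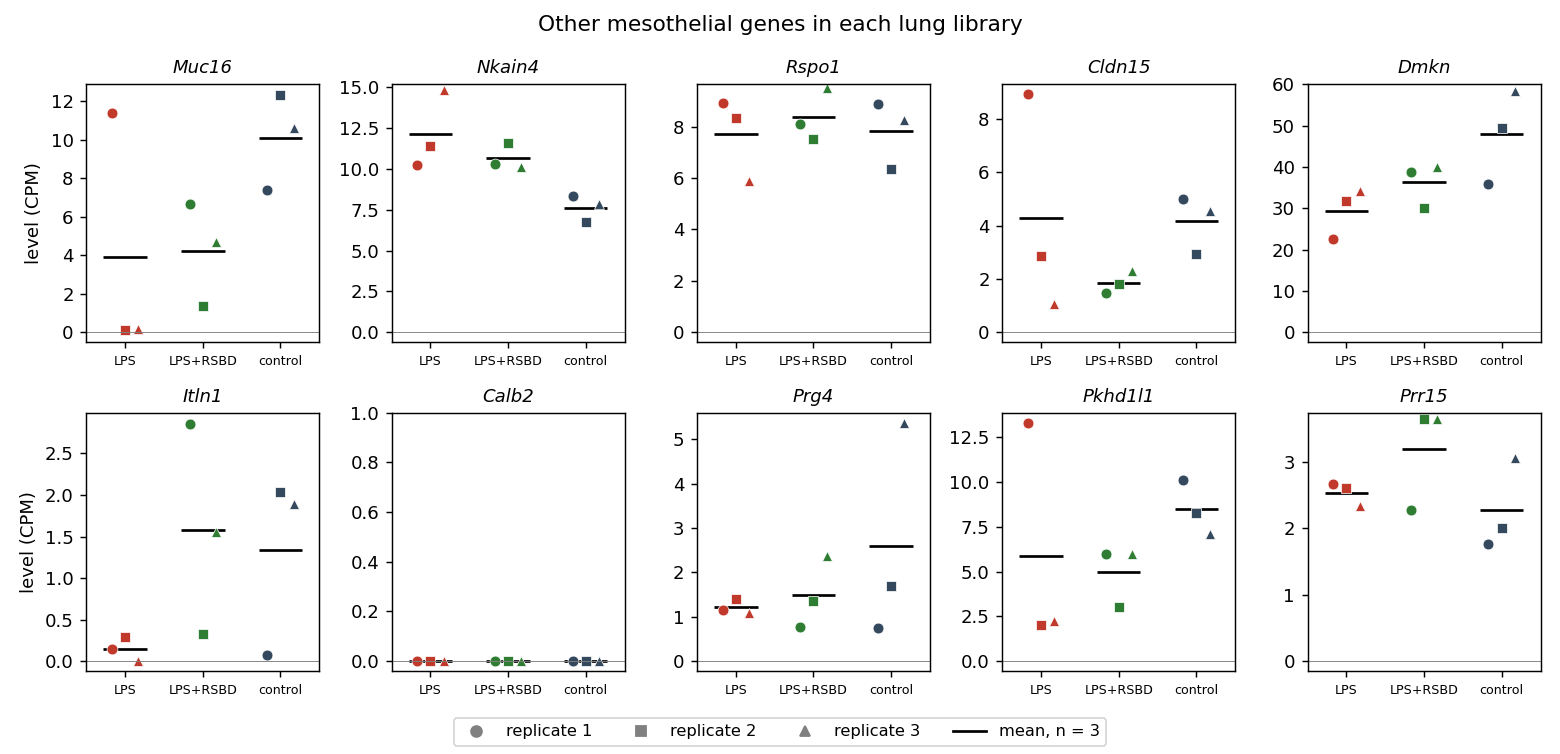
Level in CPM (linear axis) of 10 further mesothelial genes in each library, with 1 point per library, marker shape for the replicate number and a bar for the group mean (n = 3). Muc16, Pkhd1l1 and Cldn15 have LPS 1 above LPS 2 and LPS 3, while Nkain4, Dmkn, Rspo1, Prr15, Prg4 and Itln1 do not share that split.

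Genes of the epithelial and fibroblast-like states of mesothelium did not follow the 8 genes. Of the simple keratins Krt7, Krt8, Krt18 and Krt19, which lung epithelium expresses strongly, Krt8 fell in LPS against control (-0.77, adjusted p = 0.0442) and 3 were not called. Of 14 tested genes of mesothelial to mesenchymal transition, 2 rose and 1 fell in LPS against control, and 2 rose in RSBD against control. Of all tested genes, 8.79% were called higher and 8.63% lower in LPS against control, and 1.89% higher in RSBD against control. Vim, the intermediate filament vimentin, which blood and stromal cells also express, rose in LPS (1.19, adjusted p = 0.00197) and RSBD lungs (1.01, adjusted p = 0.00849) against control. Tgfb1, a cytokine that drives the transition, rose in LPS lungs (0.46, adjusted p = 0.0136), and Snai2 in RSBD lungs (1.21, adjusted p = 0.0477). Snai1, a repressor of epithelial genes, fell in LPS lungs (-0.89, adjusted p = 0.014). Vim had 866, 964 and 881 CPM in LPS 1 to 3, 770, 952 and 684 CPM in RSBD 1 to 3 and 396, 410 and 386 CPM in control 1 to 3, so LPS 1 did not stand apart.

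Around Aldh1a2, 7 of 12 tested genes of the retinoic acid pathway fell in LPS against control, 0 rose and 5 were not called, and 4 fell in RSBD against control. Of all tested genes, 8.63% were called lower in LPS and 1.8% in RSBD against control. Cyp26b1, which breaks retinoic acid down, had 88.2, 21.6 and 11.6 CPM in LPS 1 to 3, 20.1, 32.9 and 53.9 CPM in RSBD 1 to 3 and 2210, 1040 and 508 CPM in control 1 to 3. It fell in both LPS (-4.95, adjusted p = 0.0094) and RSBD lungs (-5.14, adjusted p = 0.0222) against control. Lrat, which stores retinol as esters, fell by 2.80 and 2.53 on the log2 scale (adjusted p = 0.00304 and 0.0105), and the receptor gene Rarg and the retinaldehyde reductase gene Dhrs3 also fell in both. LPS 1 was the highest LPS library for Cyp26b1 and Lrat, as for Aldh1a2, but stayed below every control, unlike Aldh1a2. For the other 5 genes that fell (Rarg, Dhrs3, Aldh1a1, Rarb and Stra6), LPS 1 was the lowest LPS library. Of the sister enzymes, Aldh1a1 fell in LPS against control (-0.42, adjusted p = 0.036) with 740, 822 and 897 CPM in LPS 1 to 3, and Aldh1a3 was not called.

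The relatives of the other members gave no matching pattern. Upk1a, Upk2 and Upk3a, the other uroplakins, were at or below 3.98 CPM in all libraries and were not called. Lrrn2 and Lrrn3, Gpm6b, and Bnc2, the second basonuclin, were not called either. Lrrn1 did not pass the filter. Egr1, an immediate early zinc-finger factor whose DNA motif resembles that of Wt1, fell in LPS against control (-2.42, adjusted p = 0.00282). It had 9.06, 15.8 and 14.0 CPM in LPS 1 to 3, 69.2, 71.0 and 50.2 CPM in RSBD 1 to 3 and 56.3, 94.8 and 56.7 CPM in control 1 to 3. Neither RSBD against LPS (2.29, adjusted p = 0.205) nor RSBD against control (-0.13, adjusted p = 0.806) was called.

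Other tissues that a lung sample can carry were scored in the same way. The score of 13 tested cardiac muscle genes was -1.07, -0.44 and -0.85 in LPS 1 to 3, 1.65, 0.49 and -0.31 in RSBD 1 to 3 and -0.80, 0.21 and 1.13 in control 1 to 3, so that LPS 1 was the lowest of all libraries where the mesothelial score was highest. Their summed level ran from 129 to 184 CPM in LPS, 205 to 763 CPM in RSBD and 151 to 529 CPM in control libraries. Adipose genes summed to 346 to 450 CPM in LPS, 360 to 393 CPM in RSBD and 340 to 595 CPM in control libraries, and skeletal muscle genes to 8.69 to 17.4, 10.1 to 63.4 and 6.30 to 19.9 CPM. Lists of lung fibroblasts, endothelium and alveolar type 1 and type 2 cells had scores between -0.45 and 0.49 in all libraries. Their summed levels in LPS 1 to 3 were 2230, 2410 and 2350 CPM for fibroblasts and 4920, 4190 and 4210 CPM for endothelium. Alveolar type 1 genes summed to 5440, 5540 and 5980 CPM and alveolar type 2 genes to 11900, 15600 and 18300 CPM. Ciliated cell genes summed to 433, 545 and 605 CPM, with scores of -0.66, -0.36 and -0.25, so LPS 1 was lowest. In LPS against control, 5 of 8 tested ciliated cell genes fell, beside 8.63% of all tested genes. The cardiac muscle, adipose and alveolar type 1 lists had 1 gene each that fell. Endothelium and lung fibroblasts had 2 genes each that rose, and adipose and thymus 1 each, beside 8.79% of all tested genes. Over 9 libraries the Pearson correlation with the mesothelial score was 0.79 for the further mesothelial genes and 0.67 for the retinoic acid pathway list. The retinoic acid score was -0.40, -0.53 and -0.48 in LPS 1 to 3 and 0.82, 0.75 and 0.39 in control 1 to 3. LPS 1 thus sat with LPS 2 and LPS 3 for that list and did not share the mesothelial split. The correlation was 0.26 for ciliated cells, 0.19 for adipose, 0.00 for cardiac muscle and -0.37 for endothelium. For lung fibroblasts, skeletal muscle and thymus it was -0.46, -0.48 and -0.59.

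**Figure D4:**
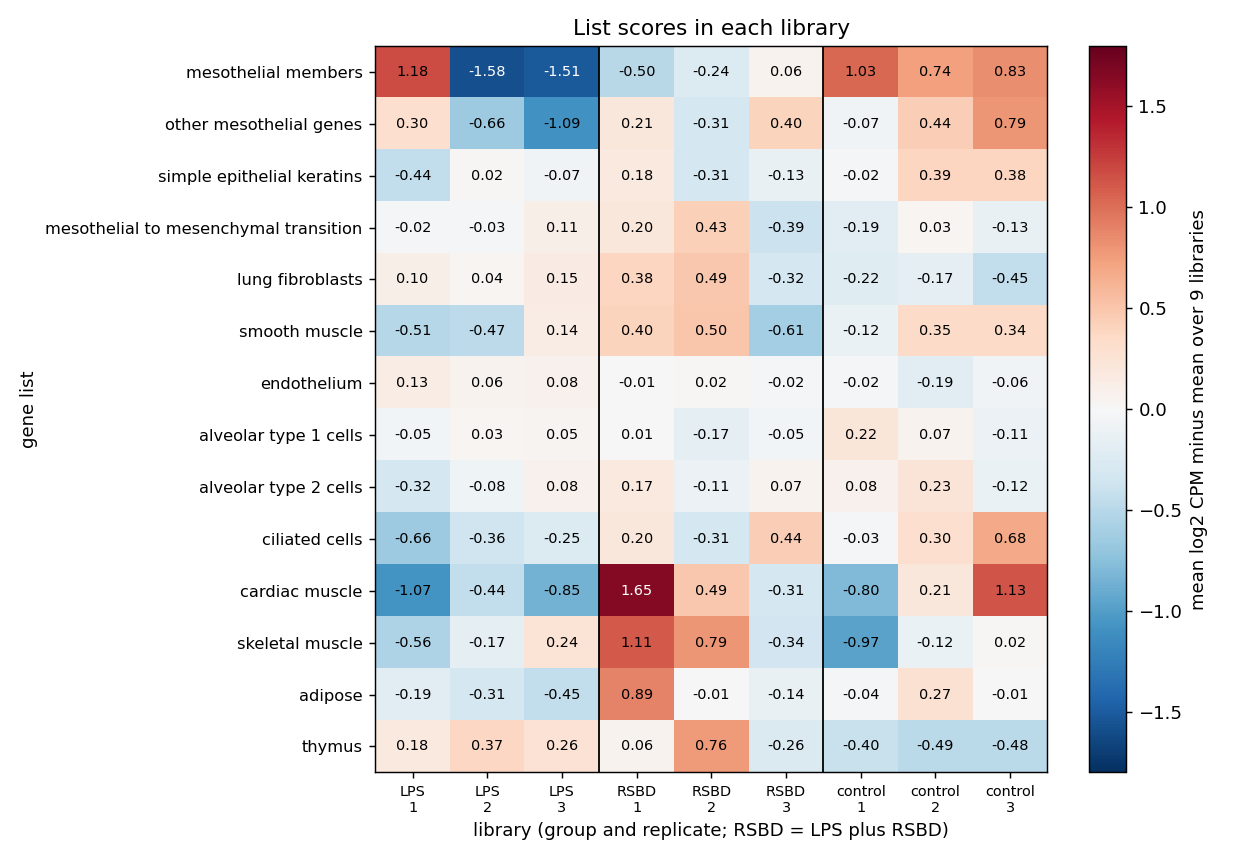
Score of each gene list (mean log2 CPM of its tested genes minus their mean over 9 libraries) in each library, printed in the cells and shown as colour. The mesothelial genes read 1.18 in LPS 1 and -1.58 and -1.51 in LPS 2 and LPS 3, and the further mesothelial genes read 0.30, -0.66 and -1.09, a difference that Muc16, Pkhd1l1 and Cldn15 carry among their 9 tested genes.

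Over 14389 genes that averaged 1 CPM or more, the 10 whose log2 CPM was most like the mesothelial score over 9 libraries were Trrap, Herc1, Hectd4, Vps13d, Shank3, Insr, Srrm1, Kmt2b, Zmiz1 and Rbm4b (Pearson r from 0.971 to 0.992). Most are widely expressed genes with long transcripts, among them the chromatin cofactor Trrap, the ubiquitin ligases Herc1 and Hectd4 and the insulin receptor Insr. Their longest transcripts had a median of 8912 bases beside 3055 for all tested genes. Trrap had 150, 105 and 104 CPM in LPS 1 to 3, 121, 128 and 134 CPM in RSBD 1 to 3 and 152, 149 and 151 CPM in control 1 to 3. The 10 genes spanned 1.36-fold to 1.90-fold over the libraries, beside 1.58-fold for Upk1b, 2.16-fold for Gpm6a, 8.62-fold for Aldh1a2, 11.9-fold for Msln, 21.3-fold for Lrrn4 and 23.8-fold for Upk3b. Among the 325 genes with an SD of log2 CPM of at least 1, a limit chosen after the data were seen, the most alike were Muc16 and Has1, both at r = 0.91. Next came Flrt1 (0.88), Muc19 (0.86), Pcdhga8 (0.85), Ppp1r3a (0.84) and H3c14 (0.81), none of them in a gene list used here. Cyp26b1 (0.80), Dthd1 (0.78) and Lrat (0.75) followed. Has1, a hyaluronan synthase, had 1.82, 0.196 and 0 CPM in LPS 1 to 3, 0.685, 1.36 and 0.836 CPM in RSBD 1 to 3 and 4.93, 4.39 and 6.30 CPM in control 1 to 3.

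Promoter windows, from 250 bases before to 50 after a gene's start in RefSeq on GRCm38.p6, were found for 5 of the 8 genes. The windows of 4 genes that shared the split of LPS lungs are printed 5′ to 3′ on the gene's strand, so that their composition can be compared, with capitals for the letters GGAATG or CATTCC, the core recognised by TEAD factors on either strand. They lie at chr5:136038246-136038545 (Upk3b, plus strand), chr2:132880813-132881112 (Lrrn4, minus), chr7:81992250-81992549 (Bnc1, minus) and chr9:71215539-71215838 (Aldh1a2, plus).
Upk3b: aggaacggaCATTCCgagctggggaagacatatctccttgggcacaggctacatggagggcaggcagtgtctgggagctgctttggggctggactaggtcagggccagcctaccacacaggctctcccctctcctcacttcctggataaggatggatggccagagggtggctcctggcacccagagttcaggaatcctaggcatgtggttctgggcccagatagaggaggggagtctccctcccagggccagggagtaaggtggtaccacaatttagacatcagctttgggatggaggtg
Lrrn4: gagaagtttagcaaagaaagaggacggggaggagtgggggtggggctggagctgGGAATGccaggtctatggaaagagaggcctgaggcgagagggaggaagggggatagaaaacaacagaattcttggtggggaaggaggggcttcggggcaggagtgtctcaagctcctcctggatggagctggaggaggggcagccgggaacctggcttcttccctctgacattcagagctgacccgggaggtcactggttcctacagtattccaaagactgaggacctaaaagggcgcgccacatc
Bnc1: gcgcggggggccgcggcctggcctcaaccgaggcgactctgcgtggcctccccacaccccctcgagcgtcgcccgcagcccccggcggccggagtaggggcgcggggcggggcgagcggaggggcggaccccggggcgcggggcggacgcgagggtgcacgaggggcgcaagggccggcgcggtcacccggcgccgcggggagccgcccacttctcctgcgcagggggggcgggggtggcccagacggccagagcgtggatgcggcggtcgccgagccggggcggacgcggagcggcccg
Aldh1a2: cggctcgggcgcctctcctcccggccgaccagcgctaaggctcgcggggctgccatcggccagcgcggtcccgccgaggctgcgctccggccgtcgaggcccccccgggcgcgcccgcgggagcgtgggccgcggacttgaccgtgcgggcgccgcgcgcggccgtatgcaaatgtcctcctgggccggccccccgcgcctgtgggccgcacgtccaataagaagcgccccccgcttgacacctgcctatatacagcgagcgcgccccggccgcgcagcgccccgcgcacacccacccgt

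The windows fell into 2 kinds. Bnc1 and Aldh1a2 had 83.3% and 78.0% G or C with 50 CG dinucleotides each, and Upk3b and Lrrn4 had 58.7% and 58.0% with 2 and 7, beside medians of 52.7% and 7 over 32851 windows. GGAATG on either strand was found in the Upk3b and Lrrn4 windows, from base 10 and base 55, in 1 of the 2 Gpm6a windows, and in 14.7% of all windows. The Gpm6a window with the match (chr8:54779184-54779483) lies far upstream of the counted gene, which starts at 54954843. The window next to that start (chr8:54954478-54954777) had no match. GTGNGGGAG, a Wt1-type motif, and GCGNGGGCG, an Egr-type motif, were found in none of the member windows on either strand and in 3.09% and 5.55% of all windows.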

How the data were processed

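Lung RNA of 9 mice was sequenced as strand-specific paired-end libraries with reads of 150 bases, per the labels' protocols. Per the submitters' processing notes, tools were StringTie 2.2.0, HISAT2 2.2.1, DESeq2 1.38.3 and fastp 0.23.2, named with GRCm38 (mm10) and without their roles. How reads were counted, and whether by strand, is not given in the sources used here. Per gene, the authors deposited estimated counts (expected counts), all whole numbers, and TPM. Group and number in a column's name tied it to its library, RS being read as RSBD.

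Counts were analysed with edgeR 4.0.16 (R 4.3.3): genes were filtered by filterByExpr (minimum count 10, minimum total 15), scaled by TMM and fitted with group as the factor (robust quasi-likelihood, 2-sided F test). The alternatives used DESeq2 1.42.0 and limma 3.58.1, limma on log2 TPM with pseudocounts 1 and 0.1. In simulated counts the fit recovered 68% of log2 changes of size 1 and 99% of size 2, and 4.02% of calls were false. The simulation gave every gene the same spread, so it does not show what could be detected for the widely varying members. Over all tested genes, SEs in LPS against control had a median of 0.15 (log2). Counting limits take reads as independent and cover counting error only.

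The 8 genes, the other lists and the motifs were chosen with earlier results of these data known, so counts over them are descriptions. The rule for naming genes took the members, called genes of the other lists (at most 4 per list), the 10 genes most like the member score and Cyp26b1. It also took the most abundant gene of a list with no call. The rule was not followed for the lists of other tissues and lung cell types, which are given as lists only. Named beyond the rule are Muc16, Pkhd1l1, Cldn15, Rspo1, Prr15, Prg4, Itln1, Calb2, Krt7, Krt18, Krt19, Rarb and Stra6. Has1, the genes ranked after it and further relatives of the members are too. The genes beyond the rule were chosen after their values were seen.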

Additional observations from a re-analysis of the deposited data

How the results depend on the processing

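The count of mesothelial genes called in LPS against control was 0 with no filter on low counts, 0 with the replicate block and 0 in a fit of those 2 groups only, and it ranged from 0 to 7 when a library was left out. It stayed 1 with DESeq2 (7 of the 8 genes had a p), RLE size factors and both pseudocounts. In LPS plus RSBD against LPS it ranged from 0 to 0, and against control from 0 to 1. Medians over the 8 genes ranged from -2.61 to -0.10, -0.76 to 1.64 and -1.13 to -0.76 in the same order of comparisons, and the first was -1.57 on log2(TPM + 0.1), where 7 genes were tested. Genes called overall ranged from 786 to 2870, 0 to 4 and 94 to 961 with a library left out. In LPS plus RSBD against LPS, DESeq2 called 154 genes, limma 1 at either pseudocount and the fit of 2 groups 1. Against control, DESeq2 called 1702, limma 313 at pseudocount 1 and 307 at 0.1, and the replicate block 240, beside 578. Limma at pseudocount 1 split its calls 98 higher and 215 lower there, beside 296 and 282, and 701 and 1334 in LPS against control, beside 1374 and 1349. The cause of these shifts was not tested.

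In LPS plus RSBD against LPS, Upk3b and Lrrn4 turned to 0.38 and 0.28 on log2(TPM + 0.1), and with the replicate block Upk3b, Lrrn4 and Bnc1 turned to 0.09, 0.14 and 0.11. With a library left out, Upk3b ran from -1.59 to 1.98, Lrrn4 from -1.17 to 1.55, Wt1 from -1.66 to 2.23, Upk1b from -0.26 to 0.00, Aldh1a2 from -0.08 to 1.62 and Bnc1 from -1.77 to 6.63, the last a fitted value against 0 reads. In LPS against control, Upk3b ran from -3.19 to 0.39, Lrrn4 from -2.41 to 0.31, Gpm6a from -0.25 to 0.13 and Bnc1 from -8.02 to 0.31. Same-numbered libraries correlated by -0.215 to 0.122 in their deviations from group means, so the numbers were not taken as pairs. Wt1 and Bnc1 rest on at most 76 reads in any library, which limits their precision.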
